A study of Mus musculus with 12 samples.

Results

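The 8 genes described here, App, Aplp1, Aplp2, Bace1, Psen2, Prnp, Mapt and Apoe, encode the amyloid precursor protein and its relatives and other proteins known from neurodegenerative disease. They were chosen by name, and each had 1 entry among the 24343 genes kept from the tables of the series. The 12 libraries, labelled as biological replicates, were made from RNA of HT22, an immortalized line of mouse hippocampal origin. All cells received siRNA, either a control siRNA or one against NCOA4, the cargo receptor that carries ferritin to the lysosome for breakdown. In the groups siControl (n = 3) and siNCOA4 (n = 3) the cells had normal iron, and in siControl+DFO (n = 3) and siNCOA4+DFO (n = 3) iron deficiency was induced with the chelator deferoxamine (DFO) at 100 µM for 24 h. HT22 is a single line, knockdown by siRNA is transient and incomplete, and a single siRNA against NCOA4 was used. An off-target effect of that siRNA cannot be told apart from the loss of NCOA4. The authors report that DFO and NCOA4 silencing together altered cell shape and lowered viability, while neither alone affected viability. The part of lowered viability in the siNCOA4+DFO values was not tested.

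App is cut by beta-secretase, whose catalytic protein is BACE1, and then by gamma-secretase, whose catalytic subunit is a presenilin, and this order of cuts releases amyloid-beta. Aplp1 and Aplp2 encode paralogs of App that are processed by the same enzymes but hold no amyloid-beta sequence. Prnp encodes the prion protein, Apoe the lipid carrier apolipoprotein E, and Mapt the microtubule-binding protein tau, and the 5′ untranslated region of App mRNA has been described as responsive to iron.

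The labelled knockdown was seen in every library. Ncoa4 was at 6.02 to 6.46 FPKM (fragments scaled by transcript length and by the total of the library) in siControl and at 0.770 to 0.952 FPKM in siNCOA4, and it was at 7.52 to 8.70 FPKM in siControl+DFO and 0.850 to 1.57 FPKM in siNCOA4+DFO. Of 10 neuronal markers, 2 reached a mean of 1 FPKM in siControl, Tubb3 at 7.42 to 8.28 FPKM and Syn1 at 5.29 to 5.83 FPKM. Camk2a was at 0.478 to 0.639 FPKM in siControl and at 1.28 to 1.42 FPKM in siNCOA4. The defining neuronal genes Rbfox3, Snap25, Nefm and Grin1 had a value of 0 in each siControl library. The neuronal list summed to 13.5 to 14.5 FPKM in siControl, 10.9 to 13.5 FPKM in siNCOA4, 17.5 to 18.7 FPKM in siControl+DFO and 10.7 to 14.1 FPKM in siNCOA4+DFO. The 5 fibroblast or mesenchymal markers all reached that mean in every group, with a summed level of 2831 to 3242 FPKM in siControl, 2101 to 2257 FPKM in siNCOA4, 1799 to 1869 FPKM in siControl+DFO and 1564 to 1704 FPKM in siNCOA4+DFO. Most of the markers thus went against the label of hippocampal neuron, with Tubb3 and Syn1 as exceptions. The mesenchymal sum was lower with each treatment. The part of these markers in the results was not tested. In RNA from whole cultures, a change in the share of cells of a type and a change in the RNA of each cell cannot be told apart. Relative depth, estimated from the smallest steps between values, spanned 1.52-fold over the 12 libraries, with siNCOA4 at 1.26 to 1.41 and siNCOA4+DFO at 0.928 to 1.20 times the first siControl library.

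The 8 genes spanned a wide range of expression in siControl. By mean FPKM, which is scaled by transcript length, the order was App (81.4 FPKM), Aplp2 (62.8), Prnp (20.9), Bace1 (4.65), Apoe (4.23) and Psen2 (0.582), with Aplp1 and Mapt listed at 0. App stood above 94.2% and Psen2 above 19.8% of the 13865 genes with a value above 0. Bace1 and Apoe overlapped between libraries, and all other neighbours among the genes above 0 were separated in all 3 siControl libraries. Aplp1 was listed at 0 in all 12 libraries, so the App family was measured here as App and Aplp2. Mapt was below the filter on low values (at least 0.5 FPKM in at least 3 libraries), which the other 6 genes passed.

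**Figure D1:**
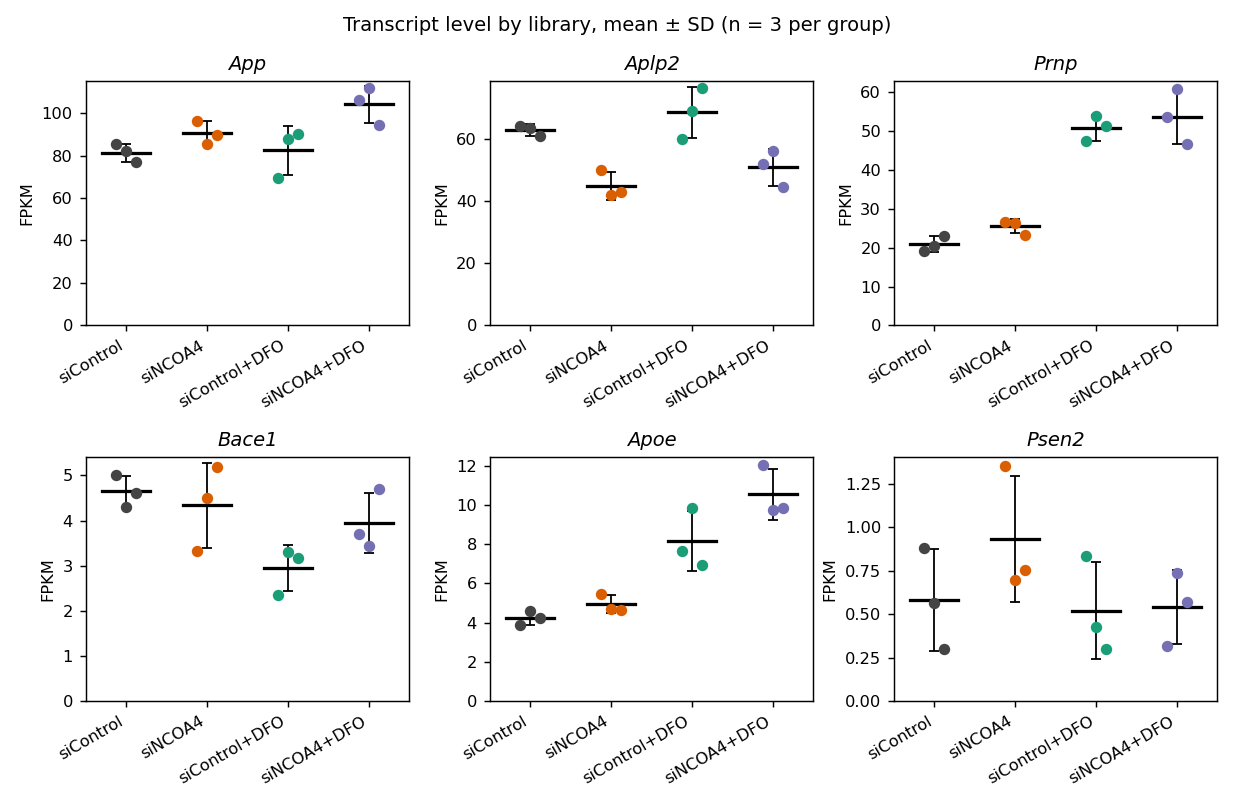
Transcript level in FPKM (vertical axis, starting at 0) of the 6 genes that passed the filter, by group (horizontal axis), with 1 point per library, the mean as a bar and the SD as whiskers (n = 3). Prnp and Apoe are higher in both groups with DFO, and Aplp2 is lower in both groups with siNCOA4.

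Changes were fitted on log2(FPKM + 0.1) over all 11924 genes that passed the filter with limma, and a gene was called changed at a Benjamini-Hochberg adjusted p below 0.05. The comparisons share libraries, in particular the siControl ones, so their values are given side by side. With 3 libraries against 3, a two-sided exact permutation test of a single gene cannot go below 0.1, which it gives wherever the groups do not overlap.

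App, the precursor of amyloid-beta, was higher in siNCOA4+DFO than in either control siRNA group. It measured 85.2, 82.1 and 76.8 FPKM in siControl and 96.5, 85.5 and 89.5 FPKM in siNCOA4. With DFO it measured 69.2, 87.9 and 89.9 FPKM in siControl+DFO and 106, 112 and 94.6 FPKM in siNCOA4+DFO. All siNCOA4+DFO libraries were above all siControl and siControl+DFO libraries, and the lowest library was siControl+DFO replicate 1. App rose 1.28-fold in siNCOA4+DFO relative to siControl (log2 fold change 0.35, SE 0.10, adjusted p = 0.0133). Without siControl replicate 3 the adjusted p was 0.0510, and without siNCOA4+DFO replicate 2 it was 0.0551. Relative to siControl+DFO it rose 1.27-fold (log2 fold change 0.34, SE 0.10, adjusted p = 0.0410). This second call was less firm, since it was lost in 4 of the alternative settings and on leaving out any of 8 of the 12 libraries, and without siControl+DFO replicate 1 the log2 fold change was 0.22 (adjusted p = 0.134). The 8 were siControl replicate 2, the 3 siNCOA4 libraries, siControl+DFO replicates 1 and 2 and siNCOA4+DFO replicates 1 and 2. For App, siNCOA4 alone did not pass the threshold (log2 fold change 0.15, 95% interval -0.07 to 0.38, adjusted p = 0.383). Nor did DFO alone (0.01, interval -0.22 to 0.23, adjusted p = 0.950). Still, every siNCOA4 library was narrowly above every siControl library (lowest 85.49 against highest 85.20 FPKM). Between siNCOA4 and siNCOA4+DFO the libraries overlapped, and App did not pass (0.20, interval -0.02 to 0.43, adjusted p = 0.140). The effects of DFO under the siRNAs differed by 0.19 (interval -0.13 to 0.51, adjusted p = 0.535). A rise of App specific to the combination was therefore not shown.

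Aplp2, the paralog of App, was lower wherever NCOA4 was silenced. It measured 64.2, 63.5 and 60.7 FPKM in siControl and 49.8, 41.8 and 42.7 FPKM in siNCOA4. With DFO it measured 60.0, 69.0 and 76.5 FPKM in siControl+DFO and 51.8, 56.2 and 44.5 FPKM in siNCOA4+DFO. Every siNCOA4 and siNCOA4+DFO library was below every siControl and siControl+DFO library. Aplp2 fell in siNCOA4 relative to siControl (fold 0.711, log2 fold change -0.49, SE 0.11, adjusted p = 0.0128), and it fell in siNCOA4+DFO relative to siControl+DFO (fold 0.743, log2 fold change -0.43, SE 0.11, adjusted p = 0.0192). In siNCOA4+DFO relative to siControl the fold was 0.806 (log2 fold change -0.31, SE 0.11, adjusted p = 0.0311). Aplp2 did not pass the threshold with DFO alone (log2 fold change 0.12, interval -0.12 to 0.35, adjusted p = 0.383).

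Single libraries decided some of these calls for Aplp2. The adjusted p in siNCOA4 relative to siControl was 0.0585 without siNCOA4 replicate 2 and 0.0505 without siNCOA4 replicate 3. In siNCOA4+DFO relative to siControl+DFO it was 0.0597 without siControl+DFO replicate 2, 0.0711 without siControl+DFO replicate 3 and 0.0705 without siNCOA4+DFO replicate 3. In siNCOA4+DFO relative to siControl it was 0.0727 and 0.0754 without siControl replicates 1 and 2, and 0.0536 and 0.117 without siNCOA4+DFO replicates 1 and 3. With all libraries kept, the call relative to siControl+DFO was lost with quantile scaling (adjusted p = 0.0846) and with only the 2 groups fitted (0.0667), and that of siNCOA4+DFO relative to siControl without a mean-variance trend (0.0547). The log2 fold change of Aplp2 stayed negative in all 3 comparisons under every setting tried, between -0.57 and -0.22.

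The ratio of App to Aplp2 separated the libraries by siRNA. It was 1.33, 1.29 and 1.26 in siControl, and 1.15, 1.27 and 1.18 in siControl+DFO. It was 1.94, 2.05 and 2.09 in siNCOA4, and 2.05, 1.99 and 2.13 in siNCOA4+DFO. The mean was 1.29 ± 0.0308 (SD, n = 3) in siControl and 1.20 ± 0.0638 (SD, n = 3) in siControl+DFO, against 2.03 ± 0.0814 (SD, n = 3) in siNCOA4 and 2.05 ± 0.0686 (SD, n = 3) in siNCOA4+DFO. Within each siRNA the ranges with and without DFO overlapped, while no siNCOA4 library came near a control siRNA library. This ratio was computed after the values of both genes had been seen and is given as a description. Being taken within a library, it does not depend on scaling between libraries.

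**Figure D2:**
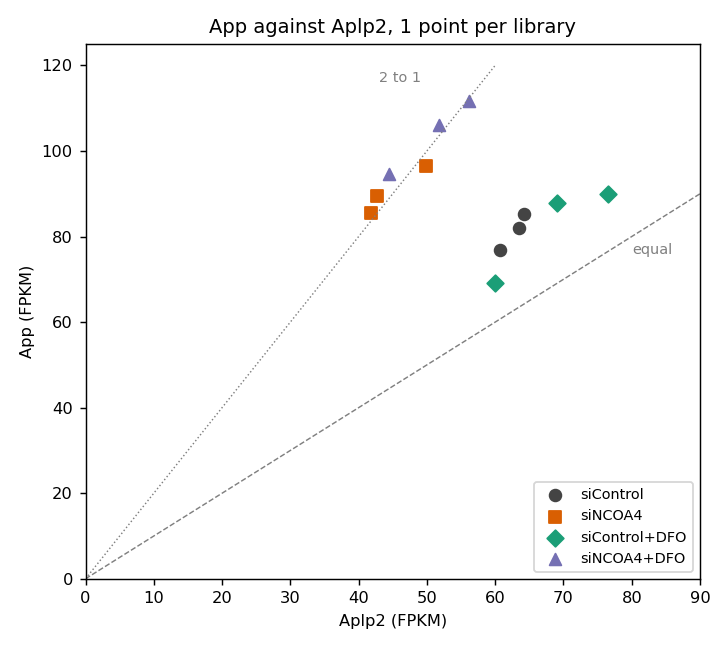
App (vertical axis, FPKM) against Aplp2 (horizontal axis, FPKM), 1 point per library, with symbols for the 4 groups and lines where App equals Aplp2 (dashed) and where it is 2 times Aplp2 (dotted). The 6 libraries with siNCOA4 lie along the dotted line, with ratios of 1.94 to 2.13, and the 6 with control siRNA lie nearer the dashed line, with ratios of 1.15 to 1.33.

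Bace1, the beta-secretase, was lower with DFO in control siRNA cells. It measured 5.00, 4.31 and 4.62 FPKM in siControl and 2.36, 3.30 and 3.17 FPKM in siControl+DFO, without overlap. In siNCOA4 it measured 3.33, 4.49 and 5.18 FPKM, and in siNCOA4+DFO 3.71, 3.44 and 4.69 FPKM, and both of these groups overlapped siControl and each other. The siNCOA4+DFO libraries were all above the siControl+DFO libraries, with a log2 fold change of 0.41 that did not pass the threshold (interval -0.02 to 0.85, adjusted p = 0.176). Bace1 fell with DFO in control siRNA cells (fold 0.636, log2 fold change -0.65, SE 0.20, adjusted p = 0.0155), and without siControl+DFO replicate 1, the lowest library, the adjusted p was 0.0663. DFO in siNCOA4 cells gave a log2 fold change of -0.12 (interval -0.56 to 0.31, adjusted p = 0.657). The difference between these effects of DFO was 0.53 on the log2 scale (interval -0.09 to 1.15, adjusted p = 0.358), so the response of Bace1 was not shown to differ between the siRNAs.

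The Bace1 value carries a limit of annotation. In the GENCODE vM21 annotation of GRCm38 (mm10), 27.7% of the 75-base windows along Bace1 exons also lay in another gene, chiefly Rnf214 on the opposite strand, and reads there can be assigned to Bace1 alone only if strand was used in counting. The library kit was stranded, and the counting setting for strand is not given in the sources used here. Rnf214 itself measured 8.53 ± 1.30 FPKM in siControl and 8.33 ± 0.476 FPKM in siControl+DFO (SD, n = 3), and did not pass the threshold with DFO (-0.02 on the log2 scale, adjusted p = 0.895). For Prnp the shared share was 3.41%, for App it was 0.49%, and the other 5 genes had none.

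Psen2, a presenilin, was near the filter in every group. It measured 0.882, 0.562 and 0.301 FPKM in siControl and 1.35, 0.698 and 0.752 FPKM in siNCOA4. In siControl+DFO it measured 0.833, 0.424 and 0.300 FPKM, and in siNCOA4+DFO 0.318, 0.735 and 0.571 FPKM. All 4 groups overlapped. No comparison passed the threshold, and the intervals were wide, for example a log2 fold change of 0.64 with an interval of -0.40 to 1.68 in siNCOA4 relative to siControl (adjusted p = 0.434). In each of the 5 comparisons of groups a 2-fold change of Psen2 lay within the interval, so a change of that size was not detectable at this level.

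Prnp, the prion protein gene, showed the largest change of the 6 tested genes with DFO in control siRNA cells. It measured 19.2, 20.5 and 23.1 FPKM in siControl and 47.3, 53.8 and 51.2 FPKM in siControl+DFO. It measured 26.5, 26.4 and 23.4 FPKM in siNCOA4 and 53.7, 60.7 and 46.6 FPKM in siNCOA4+DFO. Every library with DFO exceeded every library without it. Prnp rose 2.43-fold with DFO in control siRNA cells (log2 fold change 1.28, SE 0.11, adjusted p = 1.1e-06), which placed it above 91% of all genes tested by log2 fold change. It rose 2.096-fold with DFO in siNCOA4 cells (log2 fold change 1.07, SE 0.11, adjusted p = 9.3e-06) and 2.55-fold in siNCOA4+DFO relative to siControl (log2 fold change 1.35, SE 0.11, adjusted p = 9.84e-07). In siNCOA4 relative to siControl all 3 libraries were also higher, but the log2 fold change of 0.28 did not pass the threshold (interval 0.05 to 0.52, adjusted p = 0.112). The difference between the effects of DFO in the presence and absence of siNCOA4 was -0.21 (interval -0.54 to 0.12, adjusted p = 0.506).

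Apoe, which encodes apolipoprotein E, was also higher in both groups with DFO, at a lower level than Prnp. It measured 3.88, 4.59 and 4.22 FPKM in siControl and 7.66, 9.85 and 6.91 FPKM in siControl+DFO. It measured 5.48, 4.72 and 4.62 FPKM in siNCOA4 and 12.04, 9.73 and 9.82 FPKM in siNCOA4+DFO. Again every library with DFO was above every library without it. Apoe rose 1.89-fold with DFO in control siRNA cells (log2 fold change 0.92, SE 0.15, adjusted p = 3.13e-04), 2.11-fold with DFO in siNCOA4 cells (1.07, SE 0.15, adjusted p = 1.44e-04) and 2.45-fold in siNCOA4+DFO relative to siControl (1.29, SE 0.15, adjusted p = 2.45e-05). In siNCOA4+DFO relative to siControl+DFO the log2 fold change was 0.38 (interval 0.04 to 0.71, adjusted p = 0.114). In brain, astrocytes and microglia are the known sources of Apoe. Here the 5 microglia markers summed to at most 0.862 FPKM in any library, and P2ry12 was listed at 0 in all 12. The 6 astrocyte markers, with Aqp4 at 0 in 3 of the 4 groups, summed to 36.5 to 46.2 FPKM in siControl, 22.1 to 27.3 FPKM in siNCOA4, 2.98 to 5.14 FPKM in siControl+DFO and 5.04 to 13.5 FPKM in siNCOA4+DFO, and nearly all of the siControl sum was Slc1a3. Gfap, a defining astrocyte marker, was listed at 0 in siControl and at 0 to 0.097 FPKM in siNCOA4. With DFO it was at 0 to 0.485 FPKM in siControl+DFO and at 0.36 to 0.685 FPKM in siNCOA4+DFO. Slc1a3 went the other way, at 36.1 to 45.6 FPKM in siControl and 2.64 to 4.65 FPKM in siControl+DFO. Aldoc, Slc1a2 and S100b stayed at or below 0.732 FPKM in every library. The part of these markers in the Apoe result was not tested.

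Mapt, the tau gene, had a value of 0 in each siControl library, and it was listed at 0.05 FPKM in siNCOA4 replicate 1 and at 0 in the other siNCOA4 libraries. With DFO it was above 0 in all 6 libraries, at 0.0762, 0.0526 and 0.0686 FPKM in siControl+DFO and at 0.178, 0.0672 and 0.0707 FPKM in siNCOA4+DFO. These values are too low for a test across genes, and no fold change is given against a group listed at 0.

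**Figure D3:**
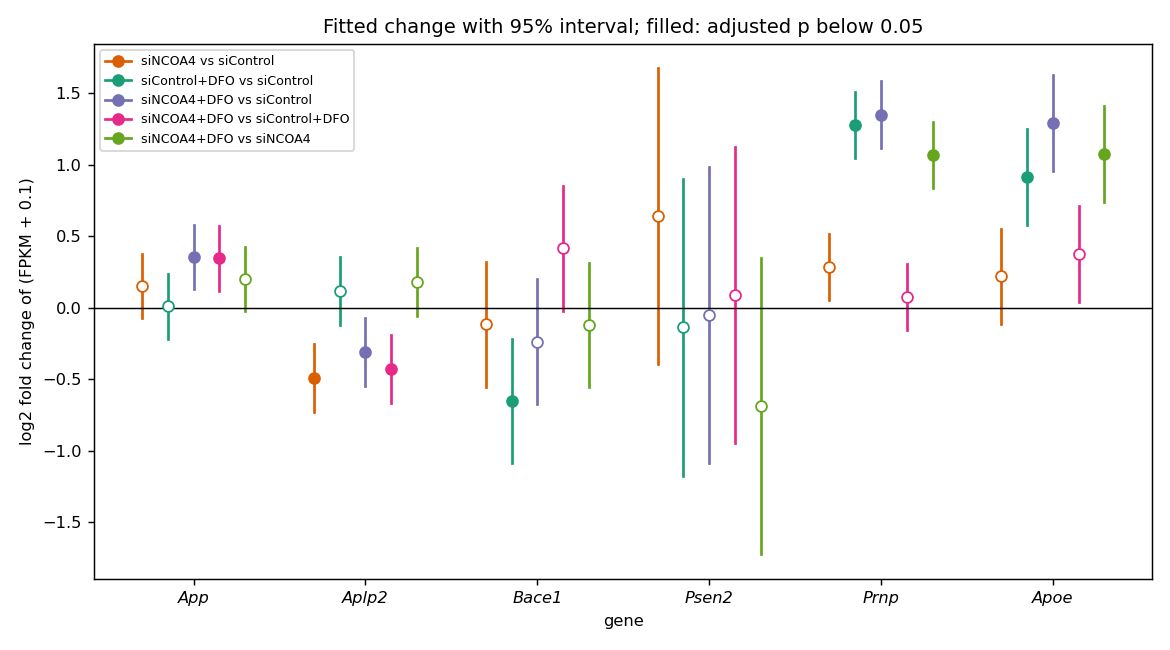
Fitted log2 fold change of FPKM + 0.1 (vertical axis) with its 95% interval for the 6 genes tested (horizontal axis), in 5 comparisons shown by colour, with filled points where the adjusted p was below 0.05. Prnp and Apoe lie between 0.92 and 1.35 in the 3 comparisons that add DFO, Aplp2 lies between -0.49 and -0.31 in the 3 comparisons of an siNCOA4 group with a control siRNA group, and Psen2 has the widest intervals.

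The number of changed genes can be set beside all genes tested. In siNCOA4 relative to siControl 1 of the 6 changed (Aplp2), where 11.7% of all genes did. With DFO in control siRNA cells 3 of the 6 changed (Prnp and Apoe higher, Bace1 lower), where 53.4% of all genes did, a share close to that of the 6. In siNCOA4+DFO relative to siControl 4 of the 6 changed (App, Prnp and Apoe higher, Aplp2 lower), against 48.8% of all genes. Relative to siControl+DFO 2 of the 6 changed (App higher, Aplp2 lower), against 16.5%, and relative to siNCOA4 also 2 of the 6 (Prnp and Apoe higher), against 42.7%. Of all genes changed in siNCOA4+DFO relative to siControl+DFO, 37.8% were higher, or 50.6% with quantile scaling. When a fold change above 2 was also asked for, 0 of the 6 remained in siNCOA4 relative to siControl (1.78% of all genes), in siNCOA4+DFO relative to siControl+DFO (2.09%) and for the interaction (0.813%). Prnp remained with DFO in control siRNA cells, where 18.8% of all genes did, and Prnp and Apoe remained in siNCOA4+DFO relative to siControl (15.2%) and to siNCOA4 (11.4%). The effect of DFO differed between the siRNAs in 0 of the 6 genes by limma at the adjusted threshold, where 2.1% of all genes did, a share close to that of the 6. At an unadjusted p below 0.05 the count was also 0 of the 6, and the share of all genes at that threshold is not given here.

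Across the 12 libraries, Prnp and Apoe were the most alike pair of the 6 (Pearson r = 0.94 of log2(FPKM + 0.1)), Bace1 and Prnp ran opposite (r = -0.64), and App and Aplp2 were only weakly related (r = -0.25). The libraries share the 4 group means, so these values describe the pattern over groups. The genes most like Prnp were Psrc1, Usp32 and Trim11 (r of 0.987 to 0.989), and those most like Apoe were Map4k3, Dll4 and Plcd4 (r of 0.972 to 0.977). Without DFO, Dll4 was at most at 0.0756 FPKM and Plcd4 at most at 0.1 FPKM. Both passed the filter only through libraries with DFO, so their r mainly reflects a step from near 0. For App they were Man2b2 (r = 0.953), Nid1 (r = 0.900) and Lamp1 (r = 0.899), the last being a major membrane protein of the lysosome. For Aplp2 they were Sf3b4, Pcdh1 and Rabl6 (r of 0.954 to 0.969), and for Bace1 Hoxc5, Tyw3 and Gstm5 (r of 0.910 to 0.943).

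The promoters were read for the core hypoxia response element, because iron chelation is known to stabilize hypoxia-inducible factor, whose hydroxylases need iron. The letters ACGTG or GCGTG were searched on both strands from 250 bases before to 50 bases after each start site (RefSeq, GRCm38.p6), where 43.8% of 32851 windows hold at least 1. Prnp, which rose with DFO, had 1 match, and Aplp2, which fell with siNCOA4, had 2. They are printed here with the flanking bases, the matched letters in capitals and each read 5′ to 3′ on the strand of the match, at chr2:131909877-131909901 (minus strand), chr9:31211865-31211889 (minus strand) and chr9:31211982-31212006 (plus strand).
Prnp: gaggggcgggGCGTGatgctcacca
Aplp2 first: tcgaagagggGCGTGgttttgtgaa
Aplp2 second: cccgcccagcGCGTGccccctcgtg
App, in 1 window, and Apoe, in 3 windows, had no match, so a match was present in one of the genes that rose with DFO and not in the other. Aplp1 had 2 matches and Psen2 had 4 over 2 windows, and Bace1 and Mapt had no window in the table. For Psen2, 2 of these matches are 1 palindromic site read on both strands. A match is a string of letters that many promoters hold and shows no binding.

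A stem with the loop of the iron-responsive element, the hairpin to which iron regulatory proteins bind, was also searched in the protein-coding transcripts of the 8 genes (an unpaired C, 5 stem bases, the loop letters CAGTG with a further base other than G, and 5 bases that pair with the first 5). It was found in none of the 8, while it was found in Fth1, Ftl1, Tfrc and Slc40a1, whose elements are well known, and in 1.01% of the 21877 protein-coding genes searched. The element of Slc11a2 was missed by this strict pattern, and the element described for App is of an atypical form, so the result covers these letters only. This search was chosen after the values had been seen.

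In the genome (GENCODE vM21, GRCm38), App lies at chr16:84949685-85173766 on the minus strand and has 11 annotated transcripts. Aplp2 lies at chr9:31149557-31211815 on the minus strand, and Bace1 on the same chromosome at chr9:45838580-45864399 on the plus strand. Prnp lies at chr2:131909928-131938429 on the plus strand with the same-strand gene Prn sharing some of its exons, and Apoe at chr7:19696109-19699188 on the minus strand. Aplp1 lies at chr7:30434982-30445535 (minus), Psen2 at chr1:180227004-180263438 (minus) and Mapt at chr11:104231390-104332090 (plus). Values were per gene, so no isoform or part of a transcript was measured separately.

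The other genes of these pathways were taken from 7 lists that leave out the 8 genes. With DFO in control siRNA cells, 0 of the 9 tested secretase genes rose and 3 fell, or 33.3% against 53.4% of all genes tested, with a list median log2 fold change of -0.15 against -0.01. Those that fell were Psenen (23.9 ± 7.55 to 12.2 ± 4.39 FPKM, SD, n = 3, log2 fold change -0.99, adjusted p = 0.0107) and Aph1a (9.70 ± 0.854 to 5.00 ± 1.24 FPKM, SD, n = 3, log2 fold change -0.97, adjusted p = 0.002), which encode subunits of gamma-secretase, and Adam17, which encodes an alpha-secretase (log2 fold change -0.24, adjusted p = 0.0497). The call for Adam17 was lost in 5 of 9 alternative settings and on leaving out any of 9 libraries (adjusted p up to 0.148), and that for Psenen without siControl replicate 2 (adjusted p = 0.0506). Aph1a also fell in siNCOA4 relative to siControl (log2 fold change -0.86, adjusted p = 0.0212), although this was lost without siControl replicate 1 or 3 or siNCOA4 replicate 2 or 3 (adjusted p up to 0.0887). In the same comparison Adam10 rose (log2 fold change 0.40, adjusted p = 0.0251), so 1 of the 9 secretase genes rose and 1 fell with siNCOA4. With DFO in siNCOA4 cells, 1 of the 9 secretase genes rose and 1 fell (22.2% against 42.7% of all genes, median -0.03). Aph1a stood at 5.40 ± 1.37 FPKM in siNCOA4 and 5.89 ± 0.632 FPKM in siNCOA4+DFO (SD, n = 3).

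Of 17 tested adaptor and sorting genes of App, 5 rose and 5 fell with DFO (median -0.06), or 58.8% against 53.4% of all genes. Mapk8ip1, an adaptor of the JNK pathway that binds the App tail, fell from 6.67 ± 0.631 to 2.48 ± 0.554 FPKM (SD, n = 3, log2 fold change -1.41, adjusted p = 3.93e-05). Apbb2, of the Fe65 family of App-binding proteins, fell from 23.1 ± 1.45 to 11.5 ± 1.29 FPKM (SD, n = 3, log2 fold change -1.01, adjusted p = 6.8e-06), and Vps26a, of the retromer that returns cargo from endosomes, rose from 31.0 ± 1.56 to 61.2 ± 2.14 FPKM (SD, n = 3, log2 fold change 0.98, adjusted p = 7.27e-07). In siNCOA4 relative to siControl, 2 of the 17 rose and 3 fell, and the largest of these changes was that of Rtn3 (log2 fold change -0.67, adjusted p = 0.00209). Vps26a also rose there (log2 fold change 0.47, adjusted p = 0.00256). Apbb2 also fell there (log2 fold change -0.43, adjusted p = 0.0220), with the call lost without siControl replicate 1 or 3 or siNCOA4 replicate 2 or 3 (adjusted p up to 0.0852).

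Of 9 tested genes for the degradation or binding of amyloid-beta, 2 rose and 3 fell with DFO (median 0.00), or 55.6% against 53.4% of all genes. Plat, tissue plasminogen activator, rose from 6.53 ± 1.25 to 33.0 ± 3.70 FPKM (SD, n = 3, log2 fold change 2.33, adjusted p = 1.92e-06). Cst3, the protease inhibitor cystatin C, fell (log2 fold change -1.13, adjusted p = 1.01e-05), as did Ece2, an endothelin-converting enzyme (-0.88, adjusted p = 0.0124, with 0.0517 without siControl replicate 3 and 0.0545 without siControl+DFO replicate 1). Of 10 tested genes of apoE lipidation and its receptors, 3 rose and 5 fell (median -0.25, 80% changed against 53.4% of all genes). Vldlr, a receptor of apoE, rose from 3.86 ± 0.728 to 10.3 ± 1.27 FPKM (SD, n = 3, log2 fold change 1.41, adjusted p = 1.44e-05), Lcat, which esterifies cholesterol on lipoproteins, rose (1.37, adjusted p = 4.76e-04), and the lipid transporter Abca7 fell (-1.24, adjusted p = 4.42e-05).

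Of 19 tested tau kinases, phosphatases and microtubule partners, 8 rose and 4 fell with DFO (median 0.27), or 63.2% against 53.4% of all genes. The microtubule-associated proteins split, with Map1b at 47.7 ± 5.18 FPKM in siControl and 97.0 ± 1.61 FPKM in siControl+DFO (SD, n = 3, log2 fold change 1.03, adjusted p = 9.31e-07) and Map1a at 20.4 ± 2.66 and 7.50 ± 0.648 FPKM (SD, n = 3, -1.43, adjusted p = 1.77e-06). Mark4, a kinase of tau, rose (0.98, adjusted p = 4.69e-04). Map1b also rose in siNCOA4 relative to siControl (log2 fold change 0.44, adjusted p = 0.00598). Since Mapt itself was listed at 0 to 0.178 FPKM, these genes were measured in cells with almost no tau transcript.

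Of 6 tested relatives and partners of the prion protein, 1 rose and 2 fell with DFO (median -0.11), or 50% against 53.4% of all genes. Gpc1, a heparan sulfate proteoglycan, fell from 68.2 ± 8.32 to 37.1 ± 7.43 FPKM (SD, n = 3, log2 fold change -0.89, adjusted p = 1.91e-04), in the opposite direction to Prnp, and it also fell in siNCOA4 relative to siControl (-0.98, adjusted p = 9.18e-04). Stip1, a co-chaperone, fell (-0.28, adjusted p = 0.00357), and the laminin Lamc1 rose (0.34, adjusted p = 0.0272), a call lost with quantile scaling (adjusted p = 0.150) and without siControl replicate 2 or 3 or siControl+DFO replicate 2 or 3 (adjusted p up to 0.106). Of 18 tested other neurodegeneration genes, 3 rose and 5 fell (median -0.10), or 44.4% against 53.4% of all genes. Sqstm1, the autophagy receptor p62, rose from 136 ± 5.35 to 604 ± 38.1 FPKM (SD, n = 3, log2 fold change 2.15, adjusted p = 5.1e-08). Tmem106b, a lysosomal membrane protein, fell from 26.1 ± 1.41 to 8.11 ± 0.298 FPKM (SD, n = 3, -1.67, adjusted p = 6.24e-07), and Ubqln2, a ubiquilin that delivers proteins to the proteasome, fell (-1.28, adjusted p = 1.76e-06).

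In siNCOA4 relative to siControl, fewer genes of these lists passed the threshold, as over all genes. The counts were 2 of 9 secretase genes, 5 of 17 adaptor and sorting genes, 1 of 9 degradation genes, 2 of 19 tau-related genes, 1 of 10 apoE-related genes, 1 of 6 prion-related genes and 0 of 18 other neurodegeneration genes, where 11.7% of all genes changed. Leaving out siNCOA4 replicate 2 brought the adaptor and sorting genes to 2 and the secretase genes to 0, and without siControl replicate 3 the degradation genes were at 0. With DFO in siNCOA4 cells, relative to siNCOA4, 42.7% of all genes changed. There 4 adaptor and sorting genes rose and 3 fell (41.2%), and 4 degradation genes rose and 2 fell (66.7%, median -0.395). Of the tau-related genes 6 rose and 2 fell (42.1%, median -0.01), and of the apoE-related genes 3 rose and 2 fell (50%). Of the prion-related genes 2 rose and 1 fell (50%), and of the other neurodegeneration genes 4 rose and 7 fell (61.1%).

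**Figure D4:**
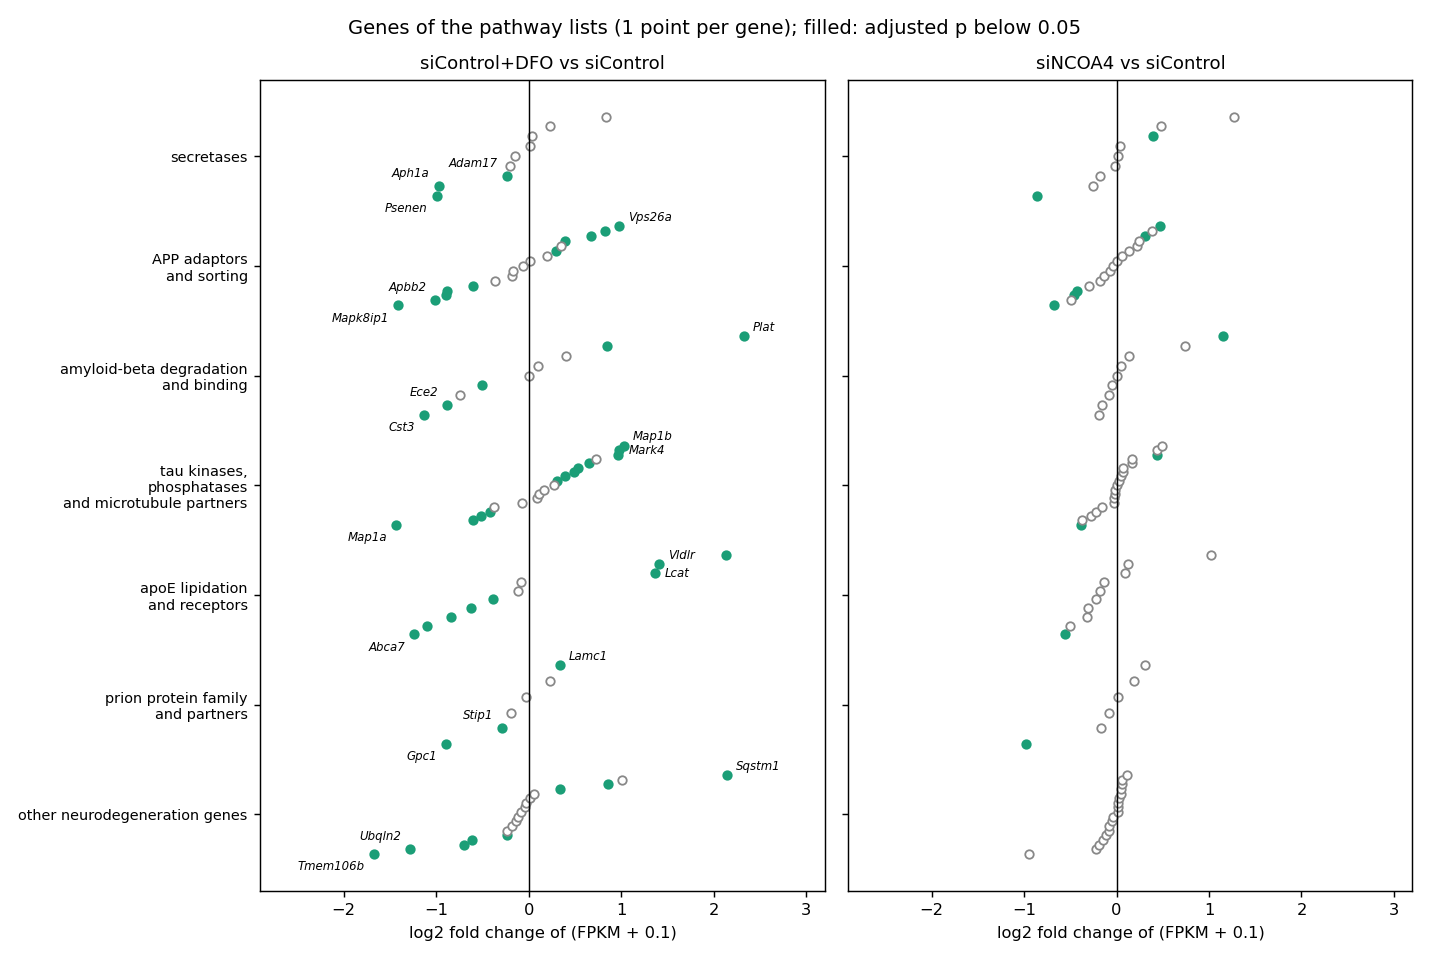
Log2 fold change of FPKM + 0.1 (horizontal axis) of the tested genes of the 7 pathway lists (vertical axis), 1 point per gene spread for legibility, for DFO in control siRNA cells (left) and siNCOA4 (right), each relative to siControl, with filled points where the adjusted p was below 0.05. The changes with DFO run from Tmem106b at -1.67 to Plat at 2.33, and each list holds genes on both sides of 0. Among the secretases the 3 filled points with DFO in control siRNA cells are below 0.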

How the data were processed

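The authors sequenced total RNA of HT22 cells as 75-bp reads from a stranded low-input kit and deposited FPKM per gene, 1 table per library. The submitters' processing notes list Trimmomatic 0.33, FastQC, HISAT2 2.1.0, featureCounts and edgeR with mm10. The tool and annotation behind the deposited FPKM are not given in the sources used here. Since FPKM are not counts, no count test was run. Each table held 24347 entries, of which 4 sharing a name were left out.

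Groups came from the sample labels. FPKM carries no total depth, and relative depth was estimated from single-fragment steps, so no counting intervals are given. A means model of the 4 groups was fitted to log2(FPKM + 0.1) with limma 3.58.1 (R 4.3.3) with a mean-variance trend, for 11924 genes with at least 0.5 FPKM in at least 3 libraries, with 8 residual degrees of freedom. The pseudocount understates changes of low genes. The fit was tested on simulated data. The interaction is the effect of DFO in siNCOA4 minus that in siControl. Sequences were read with Python 3.11.15. Proteins were not analysed here.

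The 8 genes, and the lists, were chosen with earlier results of these data known. Named besides them were Ncoa4, the 3 genes of each list with the largest change with DFO (adjusted p below 0.05, mean of at least 1 FPKM) and the 3 genes most correlated with each of the 8 that had a mean of at least 1 FPKM. Prn, Rnf214, Adam10, Rtn3, cell type markers and the known genes of the iron-responsive element search were named as context. Alternatives were other pseudocounts, filters and scalings, a replicate block, fits of 2 groups, no trend, a fold change above 2 and leaving out each library.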

Additional observations from a re-analysis of the deposited data

Results flagged for a closer look

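Among the 8 genes and the list genes named by their change with DFO, Map1b and Tmem106b passed limma's interaction test, as 2.1% of all genes did. The list genes were chosen by their change with DFO in control siRNA cells, which the interaction subtracts. That choice favours a difference of the opposite sign to the change with DFO, which both genes had. The test therefore gives no independent evidence of a difference for them. For Map1b, which rose with DFO under both siRNAs, the effect in siNCOA4 cells minus that in control siRNA cells was -0.52 on the log2 scale (adjusted p = 0.0469, range over the alternatives 0.0229 to 0.125). Map1b stood at 47.7, 64.5, 97.0 and 92.1 FPKM in siControl, siNCOA4, siControl+DFO and siNCOA4+DFO. For Tmem106b, which fell with DFO under both siRNAs, the difference was 0.84 (adjusted p = 0.0398, range 0.0192 to 0.0881), with means of 26.1, 27.0, 8.11 and 15.4 FPKM in the same order. For Stip1, the mean was 135 FPKM in siControl and 154 FPKM in siNCOA4 (adjusted p = 0.0891), and 111 FPKM in siControl+DFO and 96.1 FPKM in siNCOA4+DFO (adjusted p = 0.0532), so neither siNCOA4 effect passed the threshold, and the libraries did not overlap in either comparison. The difference of these effects, -0.40, did not pass the threshold (adjusted p = 0.0522, range 0.0453 to 0.141). Both calls were lost with quantile scaling (adjusted p = 0.125 for Map1b and 0.0728 for Tmem106b), with no filter on low values, without a trend, with the replicate block and on leaving out most single libraries.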

How the results depend on the processing

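The calls of Prnp and Apoe in the 3 comparisons that add DFO were kept under every setting tried, apart from Apoe with DFO in control siRNA cells when a fold change above 2 was also asked for. That rule left 0, 1, 2 and 0 of the 6 tested genes, and 212, 2244, 1809 and 249 of all genes, for siNCOA4, siControl+DFO and siNCOA4+DFO relative to siControl and siNCOA4+DFO relative to siControl+DFO, with 1362 of all genes relative to siNCOA4 and 97 for the interaction. In siNCOA4+DFO relative to siControl+DFO, 1 of the 6 changed with no filter, quantile scaling, no trend or the replicate block, and with only the 2 groups in the fit 0 changed, with 1149 of all genes. The interaction gave 165 genes with quantile scaling and 164 without a trend. Leaving out each library in turn gave 0 to 1 of the 6 and 718 to 1648 of all genes for siNCOA4, 0 to 2 and 1204 to 2096 for siNCOA4+DFO relative to siControl+DFO, and 76 to 288 genes for the interaction.

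Directions turned only where the adjusted p of the altered fit was above 0.39. In the main fit the lowest adjusted p among these results was 0.383, for Aplp2 with DFO in control siRNA cells. With quantile scaling the log2 fold change with DFO was -0.11 for App and -0.0058 for Aplp2, and that of Psen2 in siNCOA4+DFO relative to siControl+DFO was -0.20. On leaving out libraries, the log2 fold change with DFO ran from -0.059 to 0.129 for App and -0.48 to 0.17 for Psen2. In siNCOA4+DFO it ran from -0.39 to 0.26 for Psen2 relative to siControl, from -0.18 to 0.43 for Psen2 and -0.020 to 0.171 for Prnp relative to siControl+DFO, and from -0.295 to 0.016 for Bace1 relative to siNCOA4. For Bace1 in siNCOA4 it ran from -0.255 to 0.056, and for Aplp2 the interaction from -0.029 to 0.155. The causes were not tested.

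No shared deviation of same-numbered libraries was seen, which cannot tell whether they were prepared together. Deviations of same-numbered libraries had a median r of -0.0122 over 18 pairs, against 0.00973 over 36 other pairs, and 3 of 12 libraries correlated best with their own number. With the replicate block, the adjusted p of App relative to siControl+DFO was 0.0645 and that of Adam17 with DFO 0.0733. Genes at low FPKM, such as Psen2 and Mapt, are limited by an unknown total depth.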
